A study of Drosophila melanogaster with 18 samples.

Results

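Genes bound by Ets21c in the intestinal stem cells (ISCs) and enteroblasts (EBs) of the adult Drosophila midgut were taken as the 5184 genes that the authors' deposited table lists for the Dam-Ets21c fusion under esgTS. All listed genes were kept, and 5172 of them fell on the 17873 genes of the current annotation (28.9%), while 12 names, most of them small nucleolar RNAs, matched none. The fusion was UAS-LT3-Dam-ets21c-RA, expressed with esg-Gal4, UAS-GFP and tub-Gal80TS, and its values stand over UAS-LT3-Dam, the methylase alone, in the same driver background. Both came from midguts of mated females kept for 72 h at 29°C, with 3 replicates of 50 midguts each. Of the fusion the authors used replicates 1 and 3 and omitted replicate 2 as noisy. Each gene carries 1 height, a log2 ratio of the fusion over Dam, and 1 false discovery rate (FDR), both made by the authors, so that no spread between replicates can be given and the read depth is unknown. No test between samples was therefore possible, and all shares and medians below describe this list over genes, which are not replicates. The fusion carries the RA isoform, and the LT3 vector keeps its translation low. Lists set beside it are Ets21c in ECs, from the same fusion over Dam under Myo1A-Gal4 with 30 midguts per sample, and RNA polymerase II (PolII) in ISCs/EBs, from a Dam-PolII fusion over the same Dam-only samples of esgTS. The driver marks ISCs and EBs together, and DNA came from whole midguts, so that the 2 cell types cannot be told apart.

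Ets21c belongs to the ETS family, whose members bind DNA through a winged helix-turn-helix domain at sites built around a GGAA core. In flies Ets21c acts downstream of the stress kinase JNK, often together with the AP-1 factor made of Fos and Jun. ISCs divide to renew the epithelium, their daughters, the EBs, differentiate mostly into enterocytes (ECs), and cytokines and growth factors such as the Unpaired ligands, EGF and Pvf ligands drive this turnover. Targeted DamID (TaDa) fuses a protein to the bacterial Dam methylase, which methylates adenine in GATC sites near the places the protein visits. It reports proximity over whole GATC fragments and not single binding sites.

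The cell type was checked on markers in the PolII list of the same driver. Of 11 progenitor markers 8 were listed there, against 12.4% of all genes, and of 18 enterocyte, 15 enteroendocrine, 14 visceral muscle and 7 hemocyte markers 4, 1, 0 and 1 were. Neuron, trachea and germline markers had 1 of 7, 0 of 5 and 0 of 5. In the Ets21c list stood 9 of the 11 progenitor markers at heights of 0.45 to 0.58 (median 0.50), none of them in the highest quintile (1 of 5 groups of about equal size by height). Sox21a, a progenitor transcription factor, had 0.54 and E(spl)mbeta-HLH, a Notch target, 0.58, whereas Su(H) and spdo were absent. The Ets21c list also held 6 of 18 enterocyte, 4 of 15 enteroendocrine, 4 of 14 muscle, 2 of 7 hemocyte, 2 of 7 neuron, 1 of 5 trachea and 2 of 5 germline markers, shares of 20% to 40% beside 28.9% of all genes, and their part in the class counts was not tested.

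The heights ran from 0.15 to 1.46 with a median of 0.52, and the middle 50% of genes lay between 0.43 and 0.63. Only 529 genes (10.2%) reached 0.75 and 56 (1.08%) reached 1.0. Below 0.3, the minimum mean ratio that the methods give for a peak, lay 161 genes. At 0.30 stood 27 genes, among them the cytokine gene upd1, the deacetylase gene HDAC6 and pins, which orients the spindle, and at 0.29 stood 23, among them Chd1, a chromatin remodeler, and the Polycomb gene ph-d. The lowest heights were 0.15 for CHORD, CG5515 and the nucleoporin gene Nup205, then 0.17 for the replication genes dpa and Mcm10 and for the receptor gene Ret. An FDR of 0.0001 was listed for 1729 genes (33.4%), whose median height was 0.47 and which made up 129 of the 161 genes below 0.3. The 317 genes with an FDR of 0 had a median of 0.67 and none lay below 0.3. Over 1e-04 and up to 0.001, the median was 0.56 for 996 genes, and above 0.005 it was 0.50 for 880 genes. Height and FDR thus order the genes differently.

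**Figure D1:**
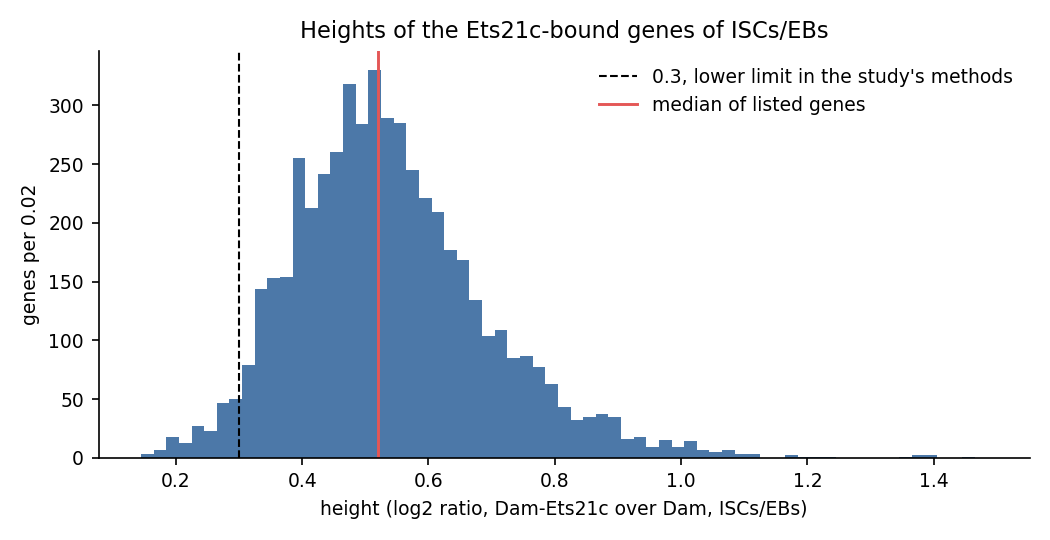
Number of listed genes (vertical axis, in equal bins) by Ets21c height (horizontal axis, log2 ratio of Dam-Ets21c over Dam in ISCs/EBs). The distribution has 1 mode near its median of 0.52 (red line), with 161 genes left of the dashed line at 0.3 and 56 genes at 1.0 or more.

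A peak was assigned to each gene within 5 kb with no other gene between, so that neighbors can share a peak. Joining neighboring listed genes with the same height and FDR, with at most 1 unlisted gene between, gave 3295 runs, of which 1892 were single genes, 1040 pairs and 283 triplets. In runs of 2 or more lay 3280 genes (63.4%), and the 100 highest genes formed 64 runs. The longest runs held 8 genes. One joined the collagen IV genes vkg and Col4a1, which are transcribed from a shared promoter region, with SP555 and 5 genes known by CG number, at 0.57. The other joined pirk, a brake on the Imd immune pathway, with PIG-M, lncRNA:CR44748 and 5 genes known by CG number, at 0.49. A run of 7 pre-mod(mdg4) genes at 0.56 lies in the trans-spliced mod(mdg4) locus, and another of 7, at 0.51, held mask, a regulator of receptor tyrosine kinase signaling.

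Heights stood apart on 1 chromosome arm. The median was 0.57 for the 953 listed genes of 3L, against 0.50 to 0.52 on the other arms and 0.51 over the 4219 listed genes outside it, and the 5th percentile was 0.38, against 0.31. Of the listed genes of 3L 30.3% fell in the highest quintile, against 17.6% of those outside 3L, and 38 of the 100 highest genes and 21 of the 56 at 1.0 or more were on 3L. The shift ran along the arm, with medians of 0.53 to 0.61 in the 6 windows of 4 Mb that hold more than 1 listed gene. In ECs the Ets21c median of 3L was 0.49, against 0.51 outside it. The share of genes listed did not stand out there (27.4%, against 33.9% on X, 25.6% on 2L, 30.8% on 2R, 29.8% on 3R and 16.7% on chromosome 4), and no gene of the Y chromosome or of the mitochondrial genome was listed. FDR values also differed by arm. The highest was 0.00657 on 3L, 0.00845 on X, 0.0071 on 2L, 0.00746 on 2R and 0.00672 on 3R, and 9 of the 16 values found on 3L occurred on no other arm. The part of the arm in the heights of single genes was not tested. For genes of 3L the arm is given below where a result turns on it. For the pathway genes together and the EGFR/Ras/ERK genes, the part in the highest quintile is also given with quintiles made within each arm.

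**Figure D2:**
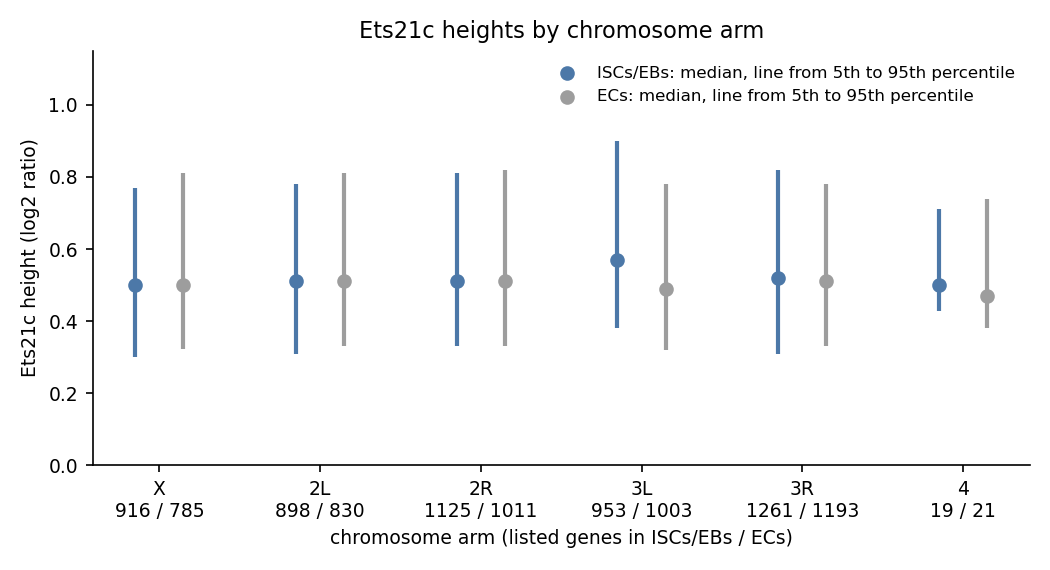
Ets21c heights (vertical axis, log2 ratio) of listed genes by chromosome arm, in ISCs/EBs (blue) and ECs (gray), with points for medians, lines from the 5th to the 95th percentile and the number of listed genes under each arm. In ISCs/EBs 3L has a median of 0.57, against 0.50 to 0.52 on the other arms, and in ECs it has 0.49.

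The 15 largest heights, with ties at the last, belonged to 17 genes in 11 runs. CG43658 led with 1.46 (FDR 0), against 0.88 in ECs. It was followed at 1.39 by kay, which encodes Fos, and by lncRNA:CR46110, which lies inside kay on the opposite strand (dm6, chr3R:29774324-29775051). At 1.37 stood mesh, a protein of the smooth septate junctions that seal the gut epithelium, and bnk, a gene of embryonic cellularization that lies inside mesh on the opposite strand (dm6, chr3R:31193362-31194389). These pairs share a height and an FDR and may each rest on 1 peak. CG6424 had 1.36, and RhoGAP18B, a GTPase-activating protein, 1.23. The casein kinase gene dco had 1.22 and rhea, which encodes talin and links integrins to actin, 1.20 on 3L. Cyp6a20 and Cyp6a21, neighboring cytochrome P450 genes, had 1.17. The Polycomb-group gene Asx, its neighbor Cpsf160, which acts in mRNA 3' end formation, and pigs, a Gas2 family cytoskeletal protein, had 1.12. Myo61F, a class I myosin, had 1.10 on 3L, as did CG9184 and lncRNA:CR45166, which lie inside it on the opposite strand. They share a height and an FDR with Myo61F and may rest on 1 peak. All 17 genes were also in the Ets21c list of ECs, at heights of 0.43 to 1.08, beside 82.9% of the genes of the highest quintile. Cyp6a20 and Cyp6a21 differed there, with 0.43 and 1.02.

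The genes that the study followed as candidate targets were spread over the ranking. The cytokine gene upd3 had 0.77 (rank 401 of 5172 genes), Jafrac1, a peroxiredoxin, 0.69 (rank 774) and PEK, a kinase of eIF2alpha, 0.59 (rank 1621). Pvf1, a ligand of the receptor Pvr, had 0.48 (rank 3167), Eip93F, an ecdysone-induced transcription factor, 0.42 (rank 3987) and Atg1, the kinase that starts autophagy, 0.40 (rank 4200). Imp, an RNA-binding protein, had 0.25 (rank 5092), below 0.3. In ECs these 7 genes had Ets21c heights of 0.48 (upd3), 0.64 (Jafrac1), 0.55 (PEK), 0.59 (Pvf1), 0.57 (Eip93F), 0.34 (Atg1) and 0.64 (Imp), so that Imp had 0.25 in ISCs/EBs against 0.64 in ECs and upd3 0.77 against 0.48. PolII heights in ISCs/EBs, which rest on the same Dam-only samples, were 1.03 for upd3, 1.04 for Jafrac1, 0.39 for PEK, 0.67 for Pvf1, 0.51 for Eip93F, 0.55 for Atg1 and 0.70 for Imp. The gene fax, named for failed axon connections, and GstD10, a glutathione S-transferase, were absent from the list, and in ECs they had 0.65 and 0.77. Ets21C itself had 0.36 (rank 4609); the fusion transgene carries its coding sequence and Dam alone does not, and the part of transgene reads in this value was not tested.

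To describe gene classes, 27 lists of pathway genes, 39 families defined by gene name and 8 marker lists were counted. These classes were chosen with earlier results of these data known, so that the counts below describe the chosen genes and test nothing. The pathway lists held 508 different genes, of which 302 (59.4%) were listed as bound, against 28.9% of all genes, with a median height of 0.57, against 0.52. In the highest quintile stood 86 of them, or 28.5%, and 28.8% with quintiles made within each arm. Along the ranking, pathway genes made up 8.33% of the highest quintile and then 6.53%, 5.74%, 4.8% and 3.76% of the lower ones. Of the 27 lists 26 had a larger share listed than all genes, and 24 had a median above that of all listed genes. Of the 39 families 12 had a larger share, and 15 had a higher median. Lists share some members, such as kay, aop and dco, and the pathway genes listed fell in 298 runs.

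**Figure D3:**
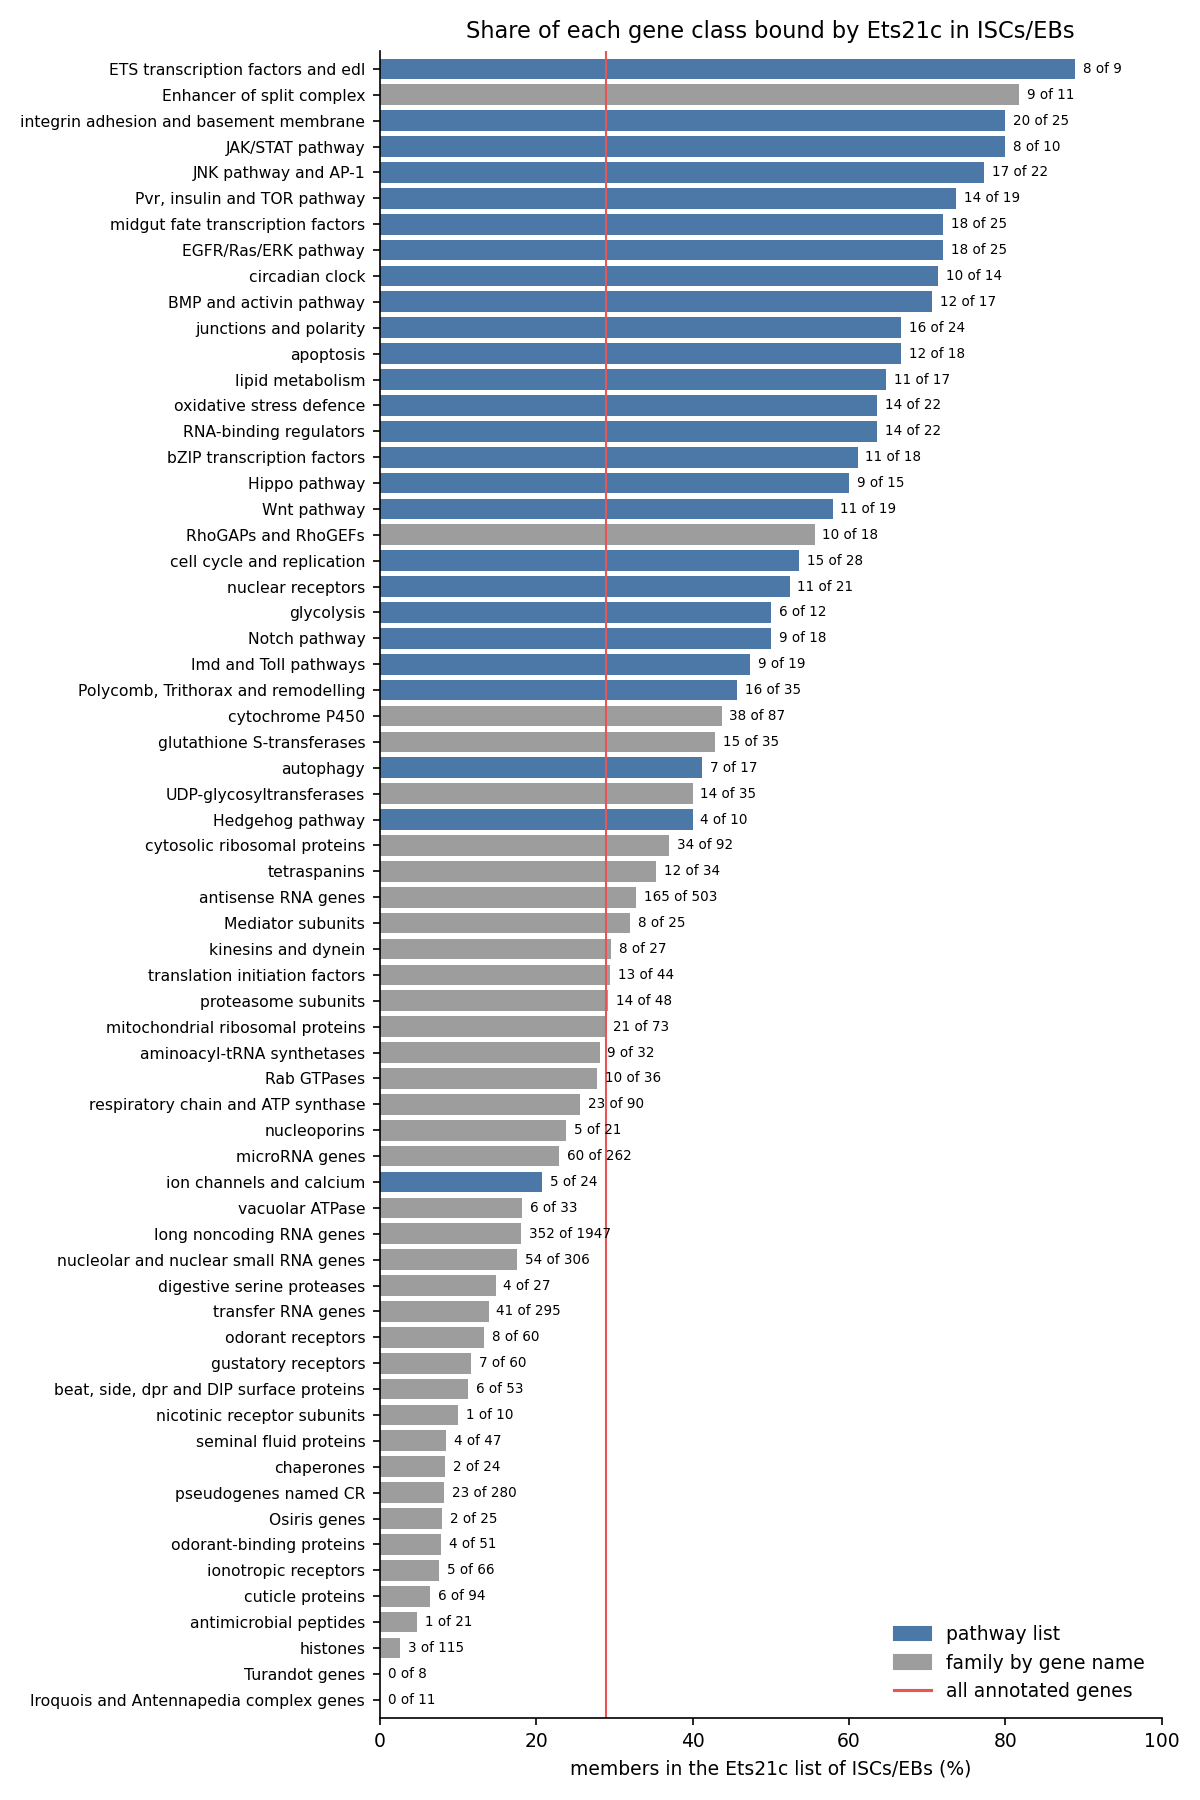
Share of members listed as bound by Ets21c in ISCs/EBs (horizontal axis, %) for the pathway lists (blue; 1 of the 27 is not shown) and each family defined by gene name (gray; genes named by CG number are left out), with the number listed of all members beside each bar. The red line marks 28.9%, the share of all annotated genes; the ETS list, Ets21C included, reaches 8 of 9 genes, and the Turandot genes and the Iroquois and Antennapedia complex genes have none.

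Of 22 genes of the JNK pathway and AP-1, 17 were listed (77.3%), with a median of 0.60 and 15 above the median of the whole list. Upstream, Mekk1, a MAP3K, had 0.83, the MAP3K gene wnd 0.67 on 3L and msn, a kinase that activates the cascade, 0.65 on 3L. Among the transcription factors downstream, kay had 1.39, Jra, which encodes Jun, 0.78, and Atf3 0.67. Absent were the TNF receptor genes grnd and wgn, the adaptor Traf6 and the kinases slpr and Mkk4. All 17 were also in the Ets21c list of ECs, beside 66.2% of the whole ISC/EB list. Of them 9 had a larger height in ISCs/EBs than in ECs, 7 a smaller one and 1 the same, where the EC heights rest on other Dam-only samples. For example, kay had 1.39 in ISCs/EBs and 0.57 in ECs. By contrast puc, a phosphatase that restrains JNK and was named after its value was seen, had 0.60 in ISCs/EBs and 1.06 in ECs. Of 18 bZIP genes 11 were listed (median 0.65, again counting kay, Jra and Atf3), with Pdp1 at 0.72 and vri, a clock repressor, at 0.70. The ETS list held 8 of its 9 genes (median 0.59), or 7 of 8 (median 0.63) without Ets21C itself, whose coding sequence the fusion carries. Ets65A had 0.88 on 3L. The ERK-regulated pair aop, a repressor also known as Yan, and pnt, an activator, both had 0.78, and edl, which restrains both, had 0.63. Eip74EF and Ets96B had 0.55, and Ets98B was absent.

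Of 25 EGFR/Ras/ERK genes 18 were listed (72%, median 0.62), with 8 in the highest quintile and 9 with quintiles made within each arm. Of these 18 genes 7 lie on 3L, and the arm is not given for each of those named. The rhomboid protease gene ru, which releases EGF ligands, had 0.97, and the phosphatase gene Ptp61F, a JAK/STAT regulator in which ru lies, the same height, both on 3L. The repressor gene cic, which ERK inactivates, had 0.91, RasGAP1 0.80 and Cbl, a ubiquitin ligase for the receptor, 0.79. The 6 highest were completed by aop and pnt. Among the genes absent were the ligand gene Krn, and Sos, drk, ksr and cnk, which carry the signal from the receptor to ERK. Also absent was rl, the gene of ERK itself. Of 10 JAK/STAT genes 8 were listed (median 0.63), namely the 3 ligands upd3 (0.77), upd2 (0.69) and upd1 (0.30), the kinase gene hop and the transcription factor gene Stat92E (0.63 each), Ptp61F (0.97, on 3L), Socs36E, a feedback inhibitor (0.50), and et, a receptor-like inhibitor (0.34), which was named after its value was seen. The receptor gene dome and Su(var)2-10 were absent. Of 19 genes of the Pvr, insulin and TOR pathways 14 were listed (median 0.555), led by the receptor gene Pvr (0.91) and S6k, a growth kinase (0.90, on 3L), then Akt1 (0.68), InR (0.64), raptor (0.58) and the ligand gene Pvf3 (0.57). The ligands of Pvr differed, with 0.48 for Pvf1 and 0.25 for Pvf2, which was named after its value was seen. Among the genes absent were chico, mTor, Tsc1 and gig.

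Notch signaling, which decides between ISC and EC fates, had 9 of 18 core genes listed (50%, median 0.53) and none in the highest quintile. The target gene Hey had 0.64, the protease gene kuz 0.60, the ubiquitin ligase gene mib1 0.59, the coactivator gene mam and numb 0.53 each and the ligase gene neur 0.51. The transcription factor gene Su(H), its corepressor gene H and the ligand gene Ser were absent. Of the Enhancer of split complex, a cluster of Notch targets on 3R, 9 of 11 genes were listed in 7 runs, at 0.34 to 0.62, with E(spl)m2-BFM at 0.62 and E(spl)m5-HLH at 0.56. None of the 11 was in the Ets21c list of ECs, which held 27.1% of all genes. Of 25 transcription factor genes of midgut fate 18 were listed (median 0.53). The GATA factor gene srp had 1.02, emc, an Id-type inhibitor that promotes EC fate, 0.90 on 3L, pros, which specifies enteroendocrine cells, 0.73, Myc 0.65, exex 0.62 and Ptx1 0.61. Absent were Sox100B, da, ase, Max, tap, chinmo and lab. Nuclear receptors had 11 of 21 genes listed (median 0.50), led by the ecdysone-response genes Eip78C (0.86) and Eip75B (0.80), both on 3L.

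Of 15 Hippo genes 9 were listed (median 0.58). Besides dco they included sd, the DNA-binding partner of Yki (0.71), ex (0.69), Tgi (0.60) and kibra (0.58), whereas hpo, sav, yki, ds, Mer and fj were absent. Of 19 Wnt genes 11 were listed (median 0.61), with the GSK3 kinase gene sgg at 0.85, the receptor gene fz2 at 0.79 and wls, which escorts the ligands, at 0.75, both on 3L, pan, which encodes TCF, at 0.70 and arm, beta-catenin, at 0.66. Of 17 BMP and activin genes 12 were listed (median 0.55), with the repressor gene shn at 0.73, dally at 0.68 on 3L, the receptor gene tkv at 0.66 and the Smad genes Mad and Med at 0.65 each; the ligand genes dpp, gbb and scw were absent. Hedgehog genes had 4 of 10 listed, among them the receptor genes boi (0.71) and ptc (0.59).

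**Figure D4:**
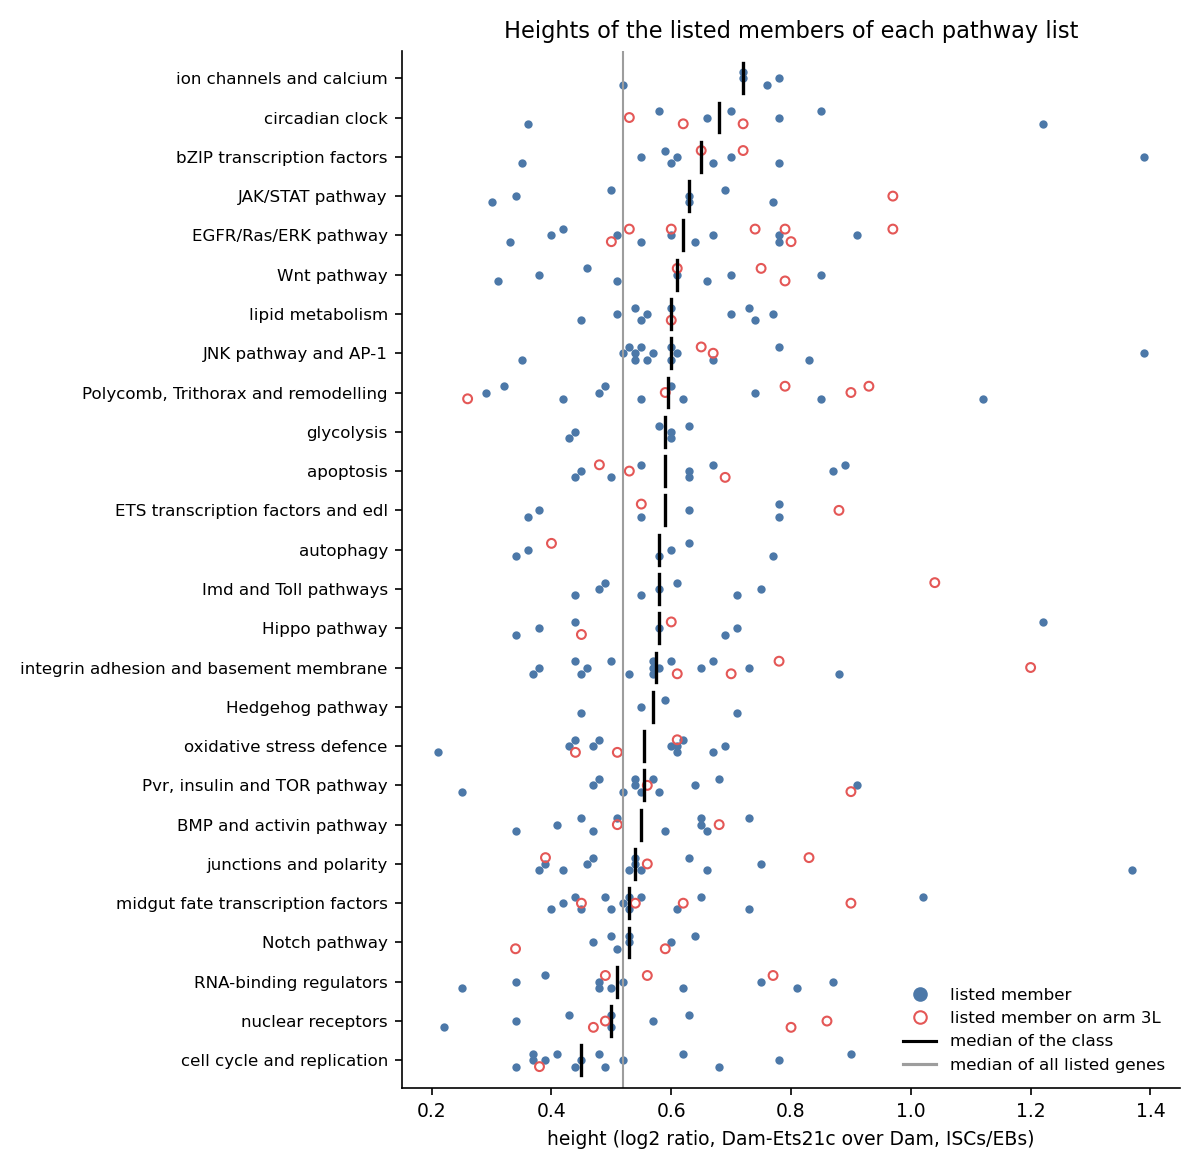
Ets21c heights in ISCs/EBs (horizontal axis, log2 ratio) of the listed members of the pathway lists (1 of the 27 is not shown), ordered by class median (black bars), with members on 3L as open red circles; the gray line marks the median of all listed genes, 0.52. Class medians run from 0.45 for cell cycle and replication to 0.72 for ion channels and calcium, and single members such as kay (1.39), mesh (1.37), dco (1.22) and rhea (1.20) stand apart from the rest of their lists.

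Of 25 genes of integrin adhesion and the basement membrane, which anchors ISCs, 20 were listed (80%, median 0.575). After talin (rhea, 1.20) came Fak, the focal adhesion kinase (0.88), Fit1, a kindlin (0.78), the integrin gene ItgaPS4 (0.73), the laminin gene LanB2 (0.70) and Src42A (0.67), with Fit1 and LanB2 on 3L. Absent were if, ItgaPS5, Ilk, Zyx and Fit2. Of 24 junction and polarity genes 16 were listed (median 0.54), with mesh at 1.37 and its partner Ssk at 0.83 on 3L, while Tsp2A, the other core protein of the smooth septate junction, was absent. Nrg had 0.75, arm 0.66, dlg1 0.63 and Nrx-IV 0.56. Of 18 RhoGAP and RhoGEF genes 10 were listed at 0.53 to 1.23, all above the median of the whole list, with RhoGAP92B at 0.76 and RhoGAP93B at 0.69 after RhoGAP18B. Tetraspanins had 12 of 34 genes listed (35.3%, near the 28.9% of all genes), with a median of 0.65, led by Tsp42Ed (0.99).

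Nuclear and cell cycle functions were mixed. Of 35 genes of Polycomb, Trithorax and remodeling 16 were listed (45.7%, median 0.595), with Asx at 1.12, the remodeler Mi-2 at 0.93, Trl, which encodes the GAGA factor, at 0.90 and brm at 0.79, all 3 on 3L, osa at 0.85 and the demethylase gene lid at 0.74. The core Polycomb genes Pc, Psc, Sce, E(z) and esc were absent. RNA-binding regulators had 14 of 22 genes listed at a median of 0.51, with Syp at 0.87, mbl at 0.81, shep at 0.77 on 3L, nos at 0.75, how at 0.62 and lin-28, which promotes symmetric ISC division, at 0.56. Cell cycle and replication genes had 15 of 28 listed with a median of 0.45, the lowest of the pathway lists, and 6 in the lowest quintile of the ranking. The replication inhibitor geminin had 0.90, the kinases Cdk2 and Cdk1 0.78 and 0.68 and E2f1 0.62, whereas stg, the Cdc25 phosphatase that drives ISC mitosis, and the cyclins CycA, CycB and CycB3 were absent. Of 18 apoptosis genes 12 were listed (median 0.59), with Dark, the Apaf-1 homolog, at 0.89, the caspase gene Decay at 0.87, the death inducer hid at 0.69 on 3L and the inhibitor Diap2 at 0.67, while the other death inducers rpr, grim and skl were absent.

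Among stress, immune and metabolic genes, 14 of 22 oxidative stress genes were listed (median 0.555). Jafrac1 led with 0.69, followed by Hsf, the heat shock factor (0.67), Gclc of glutathione synthesis (0.62), and Jafrac2, Sod3 and maf-S (0.61 each). Keap1, Sod1, Sod2 and GstD1 were absent. Of 24 chaperone genes 2 were listed (8.33%, beside 28.9% of all genes), Hsc70-3 (0.61) and Hsp70Ab (0.37). Of 17 autophagy genes 7 were listed (median 0.58), with Atg5 at 0.77. Of 19 Imd and Toll genes 9 were listed, led by the peptidoglycan receptor gene PGRP-LC (1.04, on 3L) and the adaptor gene Myd88 (0.75), but of 21 antimicrobial peptide genes, their outputs, only Def was listed (0.34). Turandot genes, a stress-induced family, had 0 of 8. Antimicrobial peptide and Turandot genes are short (median lengths of 400 and 597.5 bp), and of the shortest quintile of coding genes 16.9% were listed. Circadian clock genes had 10 of 14 listed, a median of 0.68 and 6 in the highest quintile. Besides dco and sgg these were tim (0.78), Pdp1 (0.72, on 3L), vri (0.70) and Pdfr (0.66) among the 6 highest, with per absent. Of 17 lipid metabolism genes 11 were listed (median 0.60), with ACC, the first enzyme of fatty acid synthesis, at 0.77, the sphingolipid desaturase gene ifc at 0.74 and Desat1 at 0.73. Glycolytic enzymes had 6 of 12 listed at 0.43 to 0.63.

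Several housekeeping families lay close to the 28.9% of all genes. Nucleoporin genes, with 5 of 21 listed (23.8%), were also near it, and vacuolar ATPase genes had 6 of 33 (18.2%). Of 48 proteasome genes 14 were listed (29.2%), of 73 mitochondrial ribosomal protein genes 21 (28.8%), of 36 Rab genes 10 (27.8%) and of 90 genes of the respiratory chain and ATP synthase 23 (25.6%), with class medians of 0.49 to 0.52. Cytosolic ribosomal protein genes had 34 of 92 listed (37%, median 0.49), with RpL10 at 1.01 on 3L and RpL23 at 0.96. Enzymes of detoxification were more frequent, with 38 of 87 cytochrome P450 genes in 30 runs (43.7%, median 0.45), 15 of 35 glutathione S-transferase genes (42.9%, median 0.55) and 14 of 35 UDP-glycosyltransferase genes (40%, median 0.555). Some of these genes shared runs with each other, as the 30 runs of the 38 cytochrome P450 genes show. With 1 gene per run, the first in genome order of any class, the cytochrome P450 share was 21.8%, beside 18.4% of all genes. This setting drops members behind genes of other classes too, and cannot show how much shared runs add to the excess. The glutathione S-transferase and UDP-glycosyltransferase shares also fell in that setting, but stayed above 18.4%. Families used in sensory organs, cuticle or the male accessory gland were rare beside the 28.9% of all genes. Their genes are short, with median lengths of 516 to 1896.5 bp. Of coding genes in the 3 shortest length quintiles 16.9%, 25.6% and 30.9% were listed. Listed were 8 of 60 odorant receptor, 7 of 60 gustatory receptor, 5 of 66 ionotropic receptor, 4 of 51 odorant-binding protein, 6 of 94 cuticle protein and 4 of 47 seminal fluid protein genes. Of 27 genes of digestive trypsins and related proteases 4 were listed, alphaTry and epsilonTry at 1.0, and iotaTry and thetaTry at 0.65 and 0.54. None of 11 genes of the Iroquois and Antennapedia complexes was listed, and of 24 ion channel and calcium genes 5 were, at 0.52 to 0.78, among them the store-operated calcium channel gene olf186-F (0.78), its sensor Stim (0.72) and SERCA (0.72). Of 115 histone genes 3 were listed, and most of the others lie in a repeat array in which reads cannot be placed uniquely.

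Gene length went with membership. Of the shortest quintile of protein-coding genes 16.9% were listed, and then 25.6%, 30.9%, 36.8% and, in the longest quintile, 49.2%, while the median heights ran from 0.50 to 0.545. The pathway genes were long, with a median of 7628.5 bp, against 1691 bp for all genes. Within the longest quintile 198 of 282 pathway genes were listed (70.2%), against 46.8% of the other coding genes, and in the next 3 quintiles 48.8%, 50% and 37.1% against 36.3%, 30.5% and 25.5%. In the shortest quintile 1 of 8 pathway genes was listed (12.5%), against 16.9%. Single lists were not compared within length quintiles, and some lay near the 49.2% of the longest quintile, into which their median lengths fall. Such were the Notch genes (50%, 11779 bp), nuclear receptors (52.4%, 22386 bp) and the Polycomb, Trithorax and remodeling genes (45.7%, 7560 bp). Of protein-coding genes 31.9% were listed, of noncoding RNA genes 21%, of pseudogenes 8.53% and of ribosomal RNA genes none.

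Promoters of listed genes were searched for 6 short motifs in 300 bases, 250 before and 50 from the outermost annotated start (dm6). The motifs were the ETS core CCGGAA, the AP-1 site TGANTCA, the Dam site GATC, the DNA replication-related element (DRE) TATCGAT, the GAGA element GAGAGAG and the TATA box TATAAA, each on both strands. The ETS core was found in 7.02% of the promoters of listed genes, 7.08% of those of other genes and 7.06% of all 17683 promoters. From the highest to the lowest quintile of heights the share was 8.03%, 6.53%, 4.98%, 9.71% and 6.24%, with no order. The AP-1 site was found in 6.63% of listed and 6.21% of other promoters (6.33% of all), and the Dam site in 47.4% and 45.9% (46.3% of all). Larger differences were seen for the DRE, with 20.1% of listed and 13.5% of other promoters (15.4% of all), and for the GAGA element, with 7.44% and 4.71% (5.51% of all). The TATA box was less frequent, in 41% of listed and 45.8% of other promoters (44.4% of all). Among protein-coding genes alone the shares were 22.6% and 16.2% for the DRE, 7.54% and 5.08% for the GAGA element and 42.4% and 47.4% for the TATA box. Along the ranking the DRE ran from 18.7% in the highest to 21.9% in the lowest quintile and the GAGA element was at 7.74% in the highest, 9.47% in the next and 5.05% in the lowest quintile. Cytosolic ribosomal protein genes held the ETS core in 32 of 92 promoters (34.8%), in 13 of the 34 listed and in 19 of the 58 others. Peak positions were not used here, so that a match is a description of a promoter and not a bound site.

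**Figure D5:**
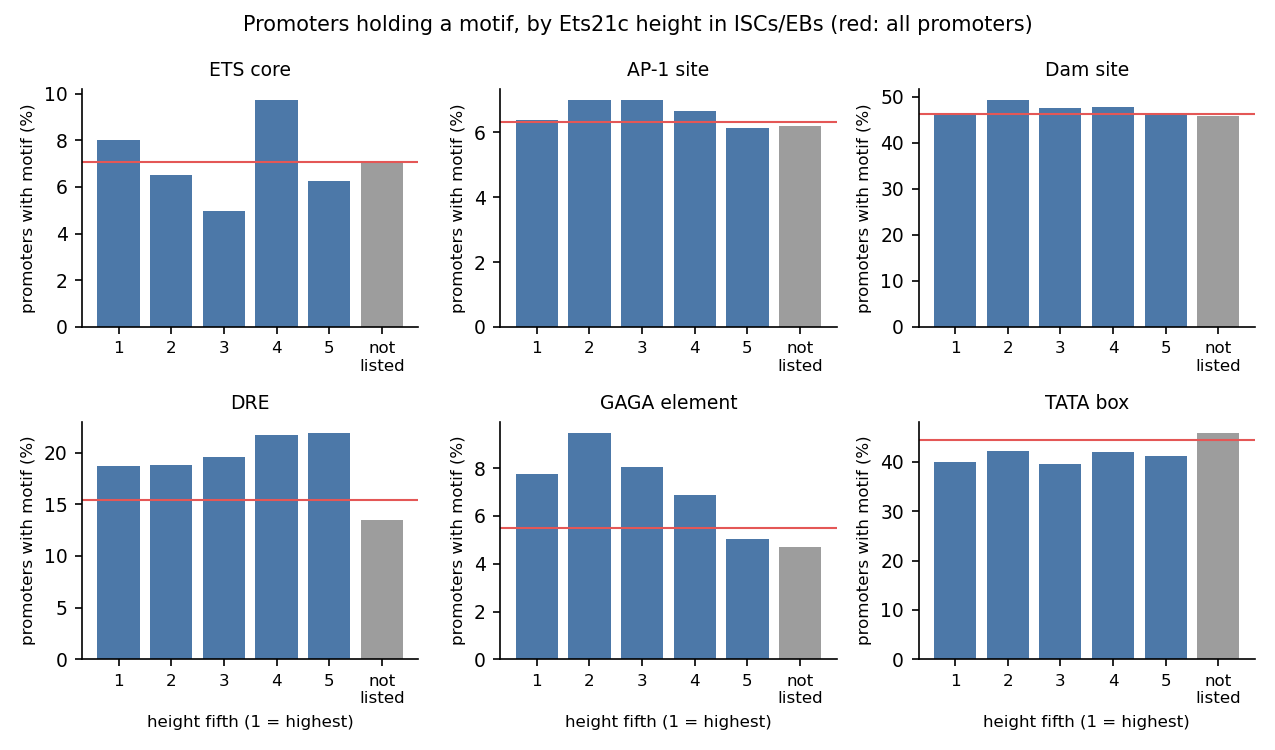
Share of promoters that hold each motif (vertical axis, %) in the 5 quintiles of Ets21c height in ISCs/EBs, from the highest (1) to the lowest (5), and in genes not listed (gray); the red line marks all promoters. The ETS core lies at 7.02% of listed and 7.08% of other promoters, and the DRE at 20.1% and 13.5%.

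Promoters that held the ETS core are shown for a few genes, chosen after their values had been seen. The first set gives high-ranking genes and the ribosomal protein gene RpL10, each with the core in capitals and 25 bases on either side where the window allows, 5′ to 3′ on the strand of the gene (RefSeq Release 6, dm6). HP1b encodes a heterochromatin protein and had a height of 1.06. The cores start 139 bases before the annotated start of bnk, 78 before that of Myo61F, 160 before that of HP1b and 11 before that of RpL10.
bnk (chr3R:31193198-31193253, + strand): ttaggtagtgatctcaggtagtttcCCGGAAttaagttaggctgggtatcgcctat
Myo61F (chr3L:1318377-1318432, + strand): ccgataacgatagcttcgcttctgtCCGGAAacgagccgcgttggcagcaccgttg
HP1b (chrX:9080878-9080933, + strand): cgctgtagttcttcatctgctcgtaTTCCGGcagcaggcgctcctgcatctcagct
RpL10 (chr3L:23095452-23095507, - strand): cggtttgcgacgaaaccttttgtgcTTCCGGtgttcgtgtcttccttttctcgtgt

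The second set shows genes of the pathways described above, since bsk, which encodes JNK and had a height of 0.55, was the only 1 of 22 genes of the JNK pathway and AP-1 with a core. It is shown with emc (0.90), fz2 (0.79), Mad (0.65) and, from the low end of the list, Imp (0.25).
emc (chr3L:749193-749248, + strand): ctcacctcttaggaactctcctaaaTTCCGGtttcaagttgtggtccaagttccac
fz2 (chr3L:19235529-19235584, - strand): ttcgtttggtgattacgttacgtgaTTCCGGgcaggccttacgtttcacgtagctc
Mad (chr2L:3159684-3159739, - strand): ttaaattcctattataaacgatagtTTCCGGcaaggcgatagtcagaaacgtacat
bsk (chr2L:10250678-10250733, - strand): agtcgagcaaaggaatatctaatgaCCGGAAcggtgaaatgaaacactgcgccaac
Imp (chrX:10824228-10824275, - strand): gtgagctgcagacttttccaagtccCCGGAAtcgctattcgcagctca
The promoter of fz2 held a further core, 23 bases past the start.

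Neither kay, at 1.39, nor upd3, at 0.77, held the ETS core CCGGAA or an AP-1 site in this window. The shorter GGAA was not searched for, and the window of upd3 holds it. Their promoters are shown whole with the Dam sites, the only bases at which the method can leave a mark, in capitals. The window of kay, a gene with several annotated starts, held 2 Dam sites and that of upd3 held 1.
kay (chr3R:29765745-29766044, + strand): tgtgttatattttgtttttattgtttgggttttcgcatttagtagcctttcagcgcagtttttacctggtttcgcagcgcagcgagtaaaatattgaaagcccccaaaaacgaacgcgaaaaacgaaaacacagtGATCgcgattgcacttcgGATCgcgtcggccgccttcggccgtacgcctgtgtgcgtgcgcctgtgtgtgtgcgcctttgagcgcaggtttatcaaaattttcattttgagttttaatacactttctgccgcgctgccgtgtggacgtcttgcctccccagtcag
upd3 (chrX:18276983-18277282, + strand): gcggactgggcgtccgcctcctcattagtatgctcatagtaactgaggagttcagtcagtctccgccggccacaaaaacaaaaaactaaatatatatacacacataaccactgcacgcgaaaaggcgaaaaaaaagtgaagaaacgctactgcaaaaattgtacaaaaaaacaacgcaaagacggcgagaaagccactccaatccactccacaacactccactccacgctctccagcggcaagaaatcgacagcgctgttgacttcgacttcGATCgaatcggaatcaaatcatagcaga

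The ISC/EB list was last set beside the Ets21c list of ECs, which held 27.1% of all genes and used other Dam-only samples. Shared were 3422 genes, 66.2% of the ISC/EB list and 70.7% of the EC list. From the highest to the lowest quintile of ISC/EB heights, 82.9%, 73.4%, 65.5%, 60.9% and 48.2% of genes were also in the EC list, with median EC heights of 0.57, 0.53, 0.51, 0.48 and 0.47. Of the progenitor markers 9 of 11 were listed in ISCs/EBs and 3 of 11 in ECs, and of the Pvr, insulin and TOR genes 14 and 8 of 19, whereas of the JNK and AP-1 genes 17 and 19 of 22 were and of the junction and polarity genes 16 and 17 of 24. These counts were not tested.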

How the data were processed

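TaDa libraries of dissected midguts were sequenced as 50 bp single-end reads. The authors made normalized log2 ratios of each fusion over Dam per GATC fragment (damidseq_pipeline), called Ets21c peaks of at least 2 fragments at an FDR under 1% in replicates 1 and 3 separately, kept those present in both, and deposited 1 log2 height and 1 FDR, a q-value, per gene. The submitters' processing notes name dm3. The heading of the table and the methods differ on the minimum height, and all listed genes were used.

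Genes were matched to Ensembl release 115 (FlyBase 6.54, dm6) by ID (5145), symbol (18) or synonym (9). Runs, quintiles of height (5 groups, ties kept together), class counts and promoter motifs were computed in python 3.11.15 with pandas 2.3.3. The joining of runs, the quintiles and the motif search were tested on simulated data, in which each run had its own height. The class counts were not tested in this way. Members, classes and lists were chosen with earlier results of these data known. Genes were named by rule: the 15 largest heights, up to 6 listed members by height of each class described with its unlisted members, the candidate targets of the study, the longest runs, and the genes at the ends of the list and beside 0.3. Alternatives were limits on height (0.3 and 0.5) and FDR (0.001), protein-coding genes and names without synonyms. Further ones were 1 gene per run (the first in genome order) and a promoter window of 250 bases. Added after the data had been examined were quintiles within arms and the genome without 3L. One pathway list enters the counts over lists but is not reported here by itself, nor are a few single genes. Values of single replicates and peak positions were not used here.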

Additional observations from a re-analysis of the deposited data

How the results depend on the processing

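The table holds 1 pooled value per gene, so that no replicate could be left out and read depth sets no limit that could be computed. No paired analysis was possible because the deposited table gives no value per replicate. The share of annotated genes listed was 28.9%, and 28% at a height of at least 0.3, 16.9% at 0.5 or more, 21.3% at an FDR of at most 0.001 and 31.9% of protein-coding genes. The median height of 0.52 was 0.60 among genes at 0.5 or more and 0.51 without 3L, and 1943 runs were left of 3295 at 0.5 or more. Against the overall share in the same setting, 41 of 74 classes had a larger share, and 42 to 44 of 74 did with limits on height or FDR, with 1 gene per run (18.4% of all genes) or without 3L, 40 of 74 without synonyms and 37 of 68 among protein-coding genes. Of 72 classes with a listed member 45 had a median above that of all listed genes, and 38 of 68 did with 1 gene per run. With 250 bases before the start alone, motif shares of listed genes fell to 5.39% (ETS core), 5.57% (AP-1 site), 40.2% (Dam site), 17.9% (DRE) and 38.3% (TATA box), and those of other genes were 5.6%, 5.26%, 38.2%, 11.9% and 42.8%. With 1 gene per run the Dam site was at 45.6%, against 45.9% of other genes, which turned its order round, and the GAGA element at 8.44%. With protein-coding genes the DRE was at 22.6% and the TATA box at 42.4%, and the ETS core at 6.89%, against 6.72% of other coding genes. Of listed pathway genes 24.3% were in the highest quintile without 3L, beside 17.6% of all listed genes outside 3L. With 3L the share was 28.5%, beside 20% of all listed genes.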

Other observations

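Noncoding RNA genes were described after their values had been seen. Of 262 microRNA genes 60 were listed (22.9%, median height 0.525) and 15 stood in the highest quintile, with mir-87 at 0.88, mir-281-1 at 0.81 and ban, the growth-promoting bantam microRNA, at 0.73 on 3L. Of 1947 long noncoding RNA genes 352 were listed (18.1%, median 0.545), which made up 8.23% of the highest and 5.14% of the lowest quintile. Antisense RNA genes had 165 of 503 listed (32.8%, median 0.50), close to the share of protein-coding genes. Of 295 transfer RNA genes 41 were listed (13.9%), led by tRNA:Glu-CTC-3-1 at 0.97. Small RNA genes often lie inside or beside coding genes, and which of them gave a peak cannot be told apart here.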
